A study of Mus musculus with 12 samples.

Results

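The large subunit of the mitochondrial ribosome was examined through 49 nuclear genes with Mrpl symbols, of 51911 features in the count tables of the study. They were taken by symbol, and all 49 symbols were found once. RNA of mouse hearts had been sequenced as total RNA after depletion of cytoplasmic ribosomal RNA. The 12 libraries formed 4 groups of 3: PTCD1 knockout (KO) hearts untreated, wild-type (WT) hearts untreated, KO hearts after CMC and WT hearts after CMC. CMC is a carbodiimide that binds pseudouridine in isolated RNA and disturbs reverse transcription there, so it was applied to RNA and not to animals. No source used here gives the age, sex or strain of the mice, or the promoter or Cre line behind the knockout. The labels do not say whether the libraries of a group came from separate animals, so each p-value measures only the spread between these samples, which may be technical.

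Mitochondrial ribosomes make the proteins encoded by the mitochondrial genome, all of them core parts of the respiratory chain and ATP synthase, on which the heart muscle depends. Their large subunit joins amino acids into protein and is built from 16S ribosomal RNA, which mitochondria transcribe themselves, and from proteins made in the cytosol from nuclear genes. The Mrpl genes encode most of those proteins. Some have counterparts in the bacterial ribosome and carry the bacterial number, from Mrpl1 to Mrpl36, while those numbered from Mrpl37 upward are mostly additions of mitochondria. PTCD1 is a mitochondrial RNA-binding protein of the pentatricopeptide repeat family that has been linked to 16S ribosomal RNA and to the assembly of this subunit.

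Levels below are counts per 1000000 effective nuclear counts, that is, nuclear counts multiplied by a TMM factor, and are called scaled counts. The factors were computed separately for untreated and for CMC libraries, so levels in the treatments are not on a common scale. Fold changes are KO over WT on the log2 scale. A gene was called higher or lower at an adjusted p under 0.05 in the edgeR quasi-likelihood test with Benjamini-Hochberg adjustment over all genes tested. Libraries held 10389398 to 12462093 counts, of which 2683284 to 3187748 were nuclear and 6643 to 7785 fell in the 49 genes. In untreated libraries the replicates differed little more than counting error allows, with a biological coefficient of variation of 2.43% against 5.48% after CMC. WT replicate 3 after CMC stood apart from the other 2 of its group: the chi-square per degree of freedom over genes was 1.96 and 2.28 against it and 1.35 between the others. Cell type markers also differed between genotypes. All 7 cardiomyocyte markers were lower in untreated KO, with a summed level of 34220 to 34600 scaled counts in KO and 75370 to 77440 in WT, and 37480 to 38330 against 73110 to 79880 after CMC. Of 6 fibroblast markers 4 were higher and 2 lower in both treatments, with sums of 2330 to 2437 in KO and 2012 to 2115 in WT untreated. Of the macrophage markers 3 of 5 tested were higher (205.2 to 221.6 in KO, 156.5 to 164 in WT untreated), of 6 smooth muscle and pericyte markers 4 were lower (1454 to 1486 against 1837 to 1916), and of 5 erythroid markers 4 were lower (418.3 to 439.9 against 480.2 to 670.4). The 6 endothelial markers moved both ways in untreated libraries (2 higher, 2 lower). After CMC 4 of them were higher and 2 lower, and all 5 erythroid markers were lower. The numbers of macrophage and of smooth muscle and pericyte markers called were the same there. Of all genes tested, 29.2% were higher and 28.7% lower untreated, and 27.3% and 26.8% after CMC. Lymphocyte markers were too low to test, with Cd3e at 0 in WT. No marker of the other lists was at 0 over a group. The part of these markers in the results below was not tested. In whole tissue, fewer cells of a type and less RNA per cell cannot be told apart.

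The targeted gene was low but present in KO. Ptcd1 stood at 8.65, 5.44 and 6.04 scaled counts in the untreated KO libraries and at 27.1, 24.97 and 25.6 in WT. After CMC it stood at 7.30, 7.35 and 7.18 in KO and at 26.7, 32.8 and 25.4 in WT. No KO library reached the lowest WT library, and the log2 fold change was -1.94 untreated (SE 0.19, edgeR adjusted p = 2.24e-19) and -1.96 after CMC (edgeR adjusted p = 2.53e-10).

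The Mrpl genes moved in both directions in KO hearts. In untreated libraries 48 of 49 had enough counts to be tested, and 15 were higher, 10 lower and 23 not called. Of all 12211 genes tested, 57.9% were called, 29.2% higher and 28.7% lower, so the share of 52.1% among the Mrpl genes was near that of all genes. Few of the changes were large: 6 rose and 5 fell by at least 1.5-fold, 22.9% of the tested members beside 34.1% of all genes. The KO and WT libraries did not overlap for 25 members, 16 with KO above and 9 with KO below, beside 61.3% of all genes, 31% above and 30.2% below. The median log2 fold change of the members was 0.043, and that of all genes -0.0025. With nuclear library sizes and no TMM factor the median of all genes moved to 0.12 and the members' calls to 19 higher and 7 lower. In that fit 73.1% of the members' calls and 61.5% of the calls over all genes were higher. With the TMM factor these shares were 60% and 50.5%. The balance of rises and falls thus depended on the scaling, in all genes as in the members.

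**Figure D1:**
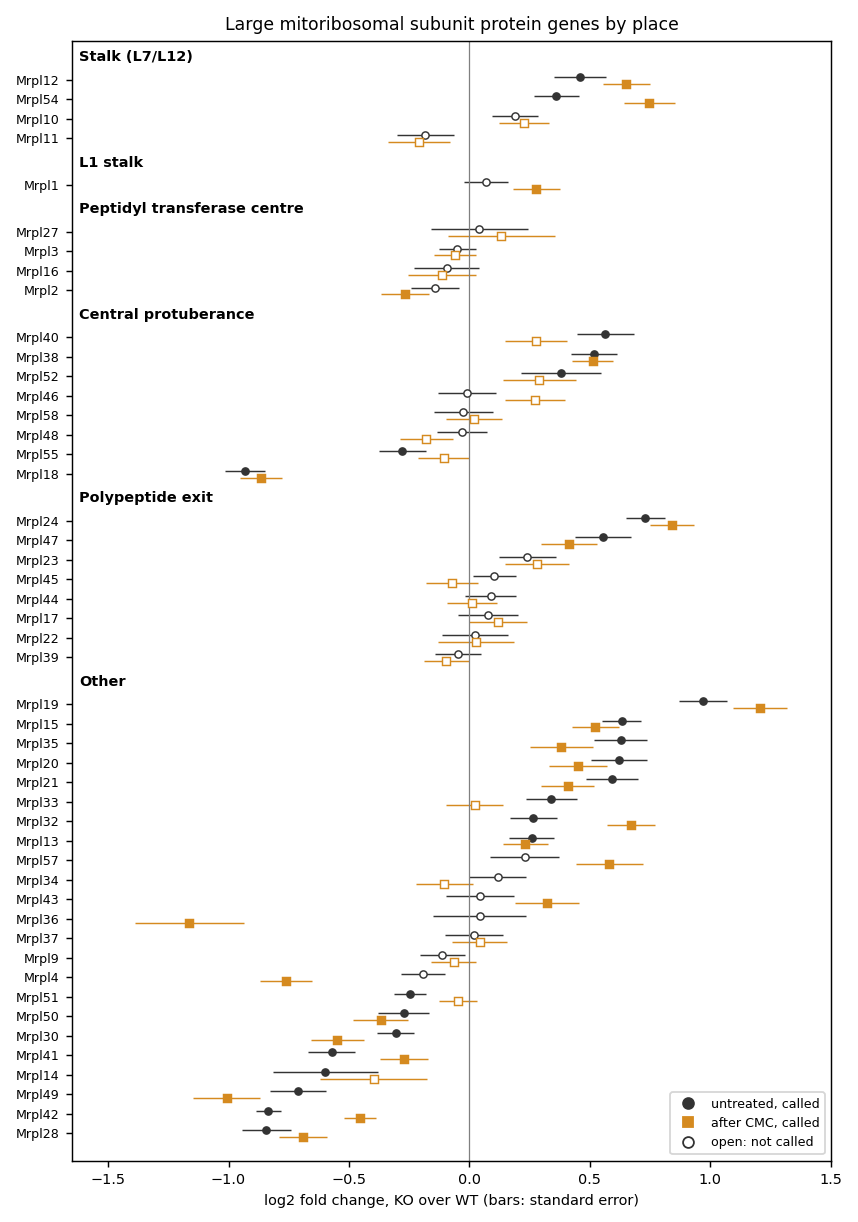
Log2 fold change KO over WT (x axis) with its standard error for the 48 tested Mrpl genes, ordered by place in the subunit, in untreated (circles) and CMC (squares) libraries. Filled symbols passed an adjusted p of 0.05. Rises and falls lie side by side in the central protuberance and among the genes of no assigned place, and the 4 genes around the peptidyl transferase centre lie near 0 in untreated libraries.

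The largest rise was that of Mrpl19 (chromosome 6, 81957851 to 81965958, minus strand, mm10), whose protein lies near the contact with the small subunit. It stood at 69.8, 66.2 and 69.9 scaled counts in the untreated KO libraries and at 34.7, 33.1 and 37.3 in WT. All KO libraries lay above all WT libraries, a 1.96-fold difference (log2 0.97, SE 0.10, edgeR adjusted p = 1.93e-18). After CMC it stood at 79.6, 63.4 and 67.5 in KO and at 27.3, 33.1 and 30.9 in WT, again without overlap (log2 1.21, SE 0.11, edgeR adjusted p = 1.01e-10). Of its exon bases, 36.0% are also exon of Gcfc2 on the opposite strand. No source used here says whether reads were counted by strand, so the value of Mrpl19 is uncertain to that extent. Gcfc2 itself moved the other way in untreated libraries (log2 -0.63, edgeR adjusted p = 0.027).

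Mrpl24 (chromosome 3, 87919506 to 87923672, plus strand) encodes a protein at the polypeptide exit. Its scaled counts were 94.9, 102 and 93.1 in untreated KO and 60.3, 56.6 and 57.7 in WT, so that every KO library was higher (log2 0.73, SE 0.08, edgeR adjusted p = 4.40e-16). The CMC libraries gave 85.3, 97.0 and 85.8 for KO and 53.6, 48.1 and 48.1 for WT (log2 0.84, SE 0.09, edgeR adjusted p = 3.87e-09). Again no KO library fell within the WT range. Rrnad1 shares 26.3% of the exon bases of Mrpl24 on the opposite strand and was called in neither treatment (log2 -0.17 untreated).

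Mrpl15 (chromosome 1, 4773206 to 4785739, minus strand) rose by a similar amount. Its scaled counts were 93.3, 92.1 and 92.1 in untreated KO and 58.3, 58.02 and 62.8 in WT (log2 0.63, SE 0.08, edgeR adjusted p = 1.18e-12). Mrpl35 (chromosome 6, 71812997 to 71826969, minus strand) stood at 52.5, 47.7 and 49.2 in KO and at 33.6, 30.2 and 32.8 in WT (log2 0.63, SE 0.11, edgeR adjusted p = 1.29e-07). For both genes the groups did not overlap, and neither shares exon bases with another gene in the annotation. Their log2 fold changes after CMC were 0.52 and 0.38, both called. The call of Mrpl35 after CMC was lost in the fits without WT replicate 1 (edgeR adjusted p = 0.117) and without WT replicate 3 (edgeR adjusted p = 0.0513), and with DESeq2 (adjusted p = 0.0915).

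The other rises of the 7 largest were smaller. Mrpl20, whose bacterial counterpart is needed early in assembly of the large subunit, stood at 49.1, 45.1 and 42.2 scaled counts in untreated KO and 34.0, 25.7 and 29.0 in WT (log2 0.62, SE 0.12, edgeR adjusted p = 6.50e-07). Mrpl21 stood at 51.0, 53.1 and 50.5 against 37.8, 34.8 and 30.03 (log2 0.59, SE 0.11, edgeR adjusted p = 4.12e-07). Mrpl40, of the central protuberance, stood at 39.9, 41.0 and 43.2 against 30.9, 27.1 and 25.9 (log2 0.56, SE 0.12, edgeR adjusted p = 1.28e-05). Each of these genes had all KO libraries above all WT libraries. After CMC, Mrpl20 (log2 0.45) and Mrpl21 (0.41) were called again, while Mrpl40 was not (0.28, edgeR adjusted p = 0.0709). The remaining 8 rises in untreated libraries ran from 0.26 at Mrpl13 to 0.55 at Mrpl47, and that of Mrpl52 (0.38, edgeR adjusted p = 0.0392) was the only one whose groups overlapped. The calls of Mrpl13, Mrpl32 and Mrpl52 among the rises and of Mrpl50 and Mrpl55 among the falls were each lost in at least 1 fit without a library.

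Mrpl18 (chromosome 17, 12911349 to 12916345, minus strand) showed the largest fall. Its protein sits in the central protuberance, the crown of the subunit. Its scaled counts were 50.1, 55.0 and 54.6 in untreated KO and 105, 94.2 and 105 in WT, a log2 fold change of -0.93 (SE 0.08, edgeR adjusted p = 1.38e-23). The CMC libraries gave 50.8, 51.5 and 51.3 for KO and 91.4, 89.1 and 99.2 for WT (log2 -0.86, SE 0.09, edgeR adjusted p = 9.78e-10). The scaled counts of the KO libraries were thus close in both treatments, which were scaled separately, and every KO library lay below every WT library.

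Mrpl28 (chromosome 17, 26123520 to 26126613, plus strand) stood at 30.3, 39.4 and 34.9 scaled counts in untreated KO and at 61.4, 67.5 and 58.7 in WT (log2 -0.84, SE 0.10, edgeR adjusted p = 5.81e-14). Mrpl49 (chromosome 19, 6053630 to 6057751, minus strand) stood at 27.2, 26.9 and 27.0 in KO and at 43.3, 42.9 and 46.6 in WT (log2 -0.71, SE 0.12, edgeR adjusted p = 2.28e-08). After CMC, Mrpl49 stood at 23.5, 22.4 and 19.4 in KO and at 52.0, 43.0 and 36.7 in WT (log2 -1.01, SE 0.14, edgeR adjusted p = 2.95e-07). No KO library reached the WT range for either gene in either treatment. For Mrpl28 the log2 fold change after CMC was -0.69.

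Mrpl41 stood at 43.6, 38.7 and 44.5 scaled counts in untreated KO and at 58.3, 66.1 and 64.2 in WT (log2 -0.57, SE 0.10, edgeR adjusted p = 4.96e-08). Mrpl14, whose protein contacts the small subunit and the assembly factor Malsu1, was among the lowest members, at 10.2, 8.96 and 6.04 against 13.5, 12.3 and 12.4 (log2 -0.60, SE 0.22, edgeR adjusted p = 0.0126). Mrpl30 stood at 72.3, 71.3 and 70.8 against 90.9, 88.3 and 86.3 (log2 -0.31, SE 0.08, edgeR adjusted p = 0.000322). In all 3 genes KO lay below WT without overlap. The call of Mrpl14 was lost without KO replicate 3 (edgeR adjusted p = 0.130) and with DESeq2 (adjusted p = 0.173). Of the exon bases of Mrpl14, 11.2% are also exon of Tmem63b on the opposite strand, which fell too (log2 -0.65, edgeR adjusted p = 1.10e-13). The call of Mrpl41 after CMC (log2 -0.27) was lost without KO replicate 2 (edgeR adjusted p = 0.0985), KO replicate 3 (edgeR adjusted p = 0.0822) or WT replicate 3 (edgeR adjusted p = 0.132). It was also lost with DESeq2 (adjusted p = 0.223), with no TMM factor (edgeR adjusted p = 0.102) and with no filter on low counts (edgeR adjusted p = 0.0664). The other 3 falls had log2 fold changes of -0.28 (Mrpl55), -0.27 (Mrpl50) and -0.25 (Mrpl51), and the groups of Mrpl50 overlapped.

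**Figure D2:**
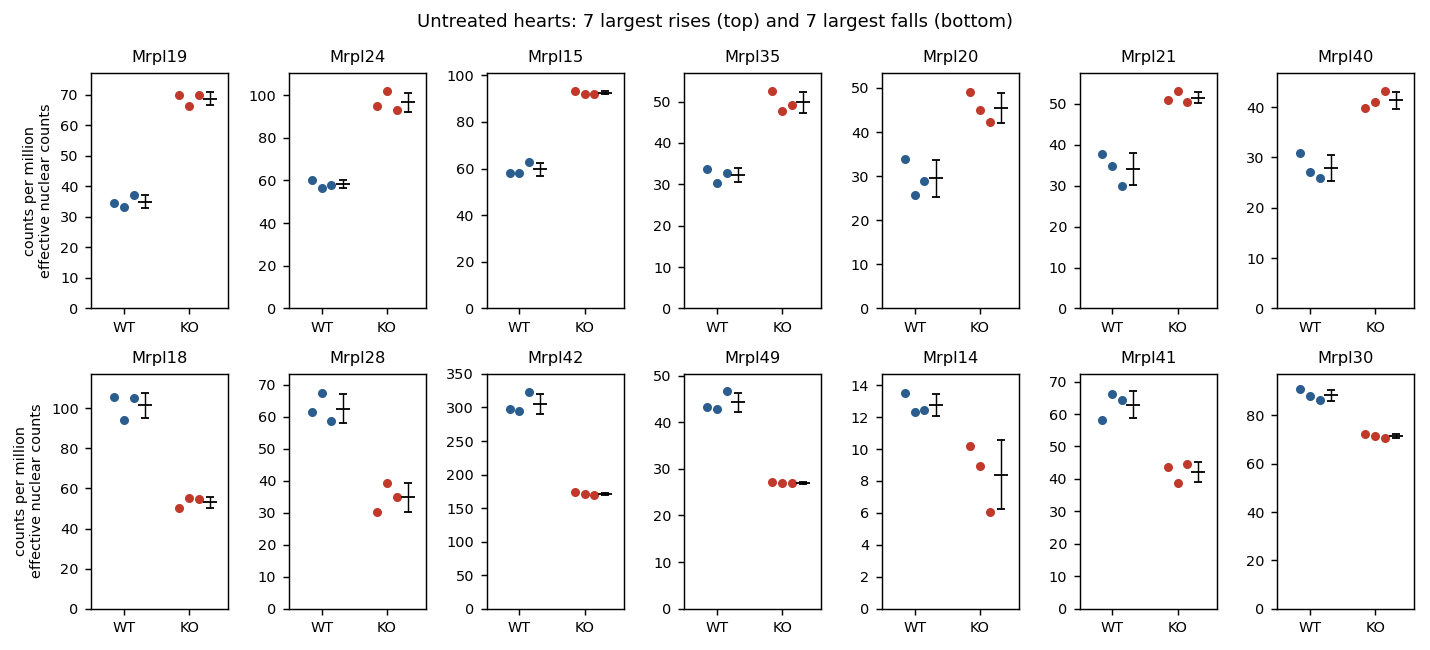
Scaled counts (y axis from 0) of the 7 largest rises and 7 largest falls in the untreated libraries; points are libraries, WT blue and KO red, and black marks give the mean with its SD (n = 3). The KO and WT points do not overlap in any panel, a condition of their choice, and the KO points of Mrpl18 lie near 53.2 on average beside 101.5 in WT.

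The promoter windows of 5 members are shown to set members that rose beside members that fell. Mrpl24 and Mrpl35 are 2 of the largest rises. Mrpl47, Mrpl18 and Mrpl49 each have a neighbour gene that starts nearby on the opposite strand and moved the other way. The windows span 250 bases before to 50 after the RefSeq start (GRCm38.p6), each read 5′ to 3′ on the gene's strand, and capitals mark matches to the motifs named in the next paragraph. The positions are chr3:87919294-87919593 (plus) for Mrpl24, chr6:71823735-71824034 (minus) for Mrpl35, chr3:32736706-32737005 (minus) for Mrpl47, chr17:12916042-12916341 (minus) for Mrpl18 and chr19:6057706-6058005 (minus) for Mrpl49.
Mrpl24: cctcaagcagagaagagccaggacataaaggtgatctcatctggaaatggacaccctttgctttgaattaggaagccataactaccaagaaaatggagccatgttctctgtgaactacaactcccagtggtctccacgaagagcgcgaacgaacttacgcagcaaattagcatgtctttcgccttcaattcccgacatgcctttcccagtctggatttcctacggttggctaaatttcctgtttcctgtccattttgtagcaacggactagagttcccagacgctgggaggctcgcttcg
Mrpl35: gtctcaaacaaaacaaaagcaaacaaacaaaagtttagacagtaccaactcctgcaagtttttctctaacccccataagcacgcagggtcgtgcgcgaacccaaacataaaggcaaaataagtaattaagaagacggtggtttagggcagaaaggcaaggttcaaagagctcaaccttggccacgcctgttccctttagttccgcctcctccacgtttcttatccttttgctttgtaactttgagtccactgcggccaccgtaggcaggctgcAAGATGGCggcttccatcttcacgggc
Mrpl47: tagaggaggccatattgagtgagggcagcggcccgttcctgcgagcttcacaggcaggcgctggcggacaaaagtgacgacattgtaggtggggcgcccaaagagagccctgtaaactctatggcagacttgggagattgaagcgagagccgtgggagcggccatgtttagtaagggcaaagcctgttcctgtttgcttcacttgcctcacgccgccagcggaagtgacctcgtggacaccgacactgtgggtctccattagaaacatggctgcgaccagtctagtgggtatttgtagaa
Mrpl18: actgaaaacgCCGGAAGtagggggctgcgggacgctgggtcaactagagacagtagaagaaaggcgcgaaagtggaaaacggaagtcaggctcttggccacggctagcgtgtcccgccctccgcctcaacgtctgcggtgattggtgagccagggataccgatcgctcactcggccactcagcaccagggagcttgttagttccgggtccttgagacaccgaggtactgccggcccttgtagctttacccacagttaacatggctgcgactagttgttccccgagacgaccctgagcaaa
Mrpl49: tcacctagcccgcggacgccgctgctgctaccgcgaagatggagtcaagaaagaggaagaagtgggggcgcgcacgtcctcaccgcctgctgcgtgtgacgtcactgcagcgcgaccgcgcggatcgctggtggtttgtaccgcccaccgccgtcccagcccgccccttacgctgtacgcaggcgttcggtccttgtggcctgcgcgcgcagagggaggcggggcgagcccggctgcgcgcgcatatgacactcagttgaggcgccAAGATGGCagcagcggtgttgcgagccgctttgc

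Motifs of factors known to act at genes for mitochondrial proteins were searched on both strands of these windows. Matches overlapping one another were not excluded. Windows were found for 43 members, 48 windows in all. The NRF1 letters (GCGCA, any base, then GCGC) were in 20.8% of the members' windows, in 9.81% of the windows of genes tested and in 4.60% of all 32851 windows of this length. The ETS letters CCGGAAG, bound by GABP, were in 31.2%, 17.3% and 8.86% in the same order. The YY1 letters AAGATGGC were in 12.5%, 4.46% and 2.75%, and the E-box CACGTG was in 12.5% of the members' windows, in 1165 of the 11654 windows of genes tested and in 7.15% of all windows. Of the 6 member windows with the E-box 3 belong to Mrpl2, so that counted by gene it was in 4 of 43 members and in 1087 of 9054 genes tested, and the order of the shares turned. The letters TGATGNAA, a form of the element bound by ATF4, were in 0 of the 48 member windows, in 2.29% of the windows of genes tested and in 3.97% of all windows.

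Among members with a window, those that rose and those that fell held these letters at close to the same numbers of windows. Of the 15 members that rose only 10 had a window, and Mrpl13, Mrpl15, Mrpl19, Mrpl38 and Mrpl54 had none. All 10 members that fell had one. Among 10 windows of members that rose in untreated KO, 2 held the NRF1 letters, 3 the ETS letters and 2 the YY1 letters. Among 10 windows of members that fell, the numbers were 2, 2 and 2. In the windows printed above, Mrpl35 and Mrpl49 hold the YY1 letters at positions 24 and 17 after the start, although the first rose and the second fell. Mrpl18 holds the ETS letters at position -240, and the windows of Mrpl24 and Mrpl47 hold none of the 5. These matches are descriptions of letters, not sites of binding.

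Many Mrpl genes start close to another gene that is read the other way. With starts at most 1000 bases apart on opposite strands, 23 members had such a protein-coding neighbour, and in 18 pairs both genes were tested in untreated libraries. In 12 of the 18 the Mrpl gene was called. Its neighbour was called in the same direction in 4, in the opposite direction in 3 and not at all in 5, so 7 of 12 neighbours were called beside 57.9% of all genes. Both genes rose in the pairs Mrpl13 and Mtbp, Mrpl32 and Psma2, and Mrpl54 and Apba3, and both fell in Mrpl14 and Tmem63b. Of their exon bases, Mrpl14 shares 11.2% with Tmem63b and Mrpl13 4.16% with Mtbp, while Mrpl32 and Mrpl54 share none. The values of Mrpl14 and Mrpl13 are therefore uncertain where strand was not used in counting. Across the 18 pairs, Pearson's r between the log2 fold changes of the neighbours was 0.0198. The pairs share libraries and some share exon bases, so this r is a description.

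In 3 pairs the genes went in opposite directions. Mrpl18 fell by 0.93 on the log2 scale while Tcp1, a subunit of the cytosolic chaperonin whose start lies 644 bases away, rose (0.67, edgeR adjusted p = 5.78e-29). Mrpl49 fell while Fau, which encodes a cytosolic small-subunit ribosomal protein fused to a ubiquitin-like protein and starts 137 bases away, rose (0.61, edgeR adjusted p = 3.46e-10). Mrpl47 rose (0.55, edgeR adjusted p = 8.52e-06) while Ndufb5, a subunit of respiratory complex I, fell (-0.60, edgeR adjusted p = 3.32e-23). All 3 pairs kept these directions and calls after CMC. Of the 4 pairs that moved together 2 kept both calls, while Psma2 (edgeR adjusted p = 0.140) and Mrpl14 (edgeR adjusted p = 0.134) were not called. The 3 opposite pairs had log2 fold changes after CMC of -0.86 and 0.57, -1.01 and 0.56, and 0.41 and -0.66. Mrpl47 shares 24.2% of its exon bases with its neighbours and Mrpl18 10.1% with Tcp1, so these values are uncertain where strand was not used in counting. Mrpl49 and Fau do not share exon bases, though Syvn1 covers 4.82% of those of Mrpl49.

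**Figure D3:**
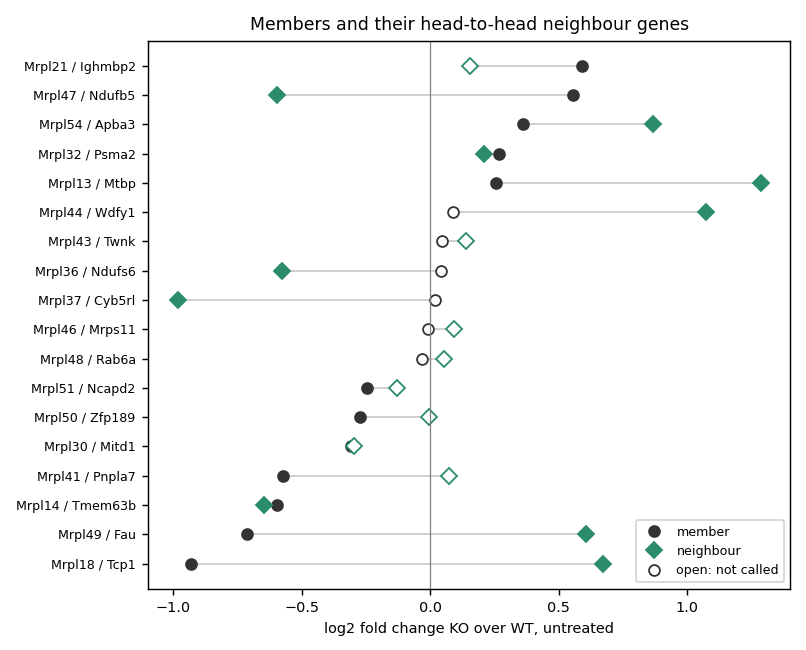
Log2 fold change KO over WT in untreated libraries (x axis) of 18 Mrpl genes (circles) and of the gene that starts within 1000 bases on the opposite strand (diamonds), 1 pair a row. Filled symbols passed an adjusted p of 0.05; the pairs of Mrpl18, Mrpl49 and Mrpl47 have filled symbols on both sides of 0.

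The changes were spread over the places of the proteins in the subunit. Of all genes tested in untreated libraries 29.2% were higher and 28.7% lower, and no place was tested against them. At the stalk that recruits translation factors, 2 of 4 tested genes rose and none fell. Mrpl12, the stalk protein itself, which has also been described as a partner of the mitochondrial RNA polymerase, stood at 49.1, 49.9 and 49.2 scaled counts in untreated KO and at 34.3, 38.0 and 35.6 in WT (log2 0.46, SE 0.11, edgeR adjusted p = 7.82e-05). After CMC it stood at 58.7, 64.1 and 62.4 against 40.8, 38.8 and 38.1 (log2 0.65, SE 0.10, edgeR adjusted p = 1.48e-06). Mrpl12 was thus higher in every KO library of both treatments, as was Mrpl54 beside it (0.36 and 0.75). Mrpl10 (0.19) and Mrpl11 (-0.18) of the stalk base were not called in untreated libraries.

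Around the peptidyl transferase centre, where peptide bonds form, none of the 4 genes was called in untreated libraries, beside 57.9% of all genes. Their log2 fold changes ran from -0.14 at Mrpl2 to 0.04 at Mrpl27. After CMC Mrpl2 was called lower, at 41.2, 45.9 and 43.1 scaled counts in KO and 52.3, 52.2 and 52.2 in WT (log2 -0.27, SE 0.10, edgeR adjusted p = 0.0230). The groups did not overlap, but the call was lost without any 1 of KO replicate 1, KO replicate 3, WT replicate 1 or WT replicate 2 (edgeR adjusted p = 0.104, 0.0642, 0.0607 and 0.0534). It was also lost with DESeq2 (adjusted p = 0.249), with no TMM factor (edgeR adjusted p = 0.106) and with no filter on low counts (edgeR adjusted p = 0.0826). Mrpl1, the protein of the mobile L1 stalk at the exit site for transfer RNA, was not called in untreated libraries (0.068). After CMC it was called higher (log2 0.28, SE 0.10, edgeR adjusted p = 0.0170), a call lost without KO replicate 1 (edgeR adjusted p = 0.121) or WT replicate 1 (edgeR adjusted p = 0.105), and with DESeq2 (adjusted p = 0.114).

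The central protuberance held changes in both directions: of 8 genes, 3 rose (Mrpl40, Mrpl38 and Mrpl52), 2 fell (Mrpl18 and Mrpl55) and 3 were not called in untreated libraries. Mrpl38 had nearly the same fold change in both treatments (log2 0.52 and 0.51). Mrpl58, a hydrolase that frees stalled ribosomes and is built into the subunit, had log2 fold changes of -0.025 and 0.019. At the polypeptide exit and on the membrane side, 2 of 8 rose, Mrpl24 and Mrpl47, and none fell. Mrpl45, which holds the ribosome at the inner membrane, was not called in either treatment (0.10 and -0.07). The 23 genes assigned to none of these places held 8 rises and 8 falls. The share called was 62.5% in the central protuberance, 25% at the exit and 69.6% among the unassigned genes. Of all genes 57.9% were called, 29.2% higher and 28.7% lower.

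Genes with a bacterial number and those without were called in 50% and 55% of cases in untreated libraries, beside 57.9% of all genes. Of all genes 29.2% were higher and 28.7% lower, with a median of -0.0025. Of 28 tested genes from Mrpl1 to Mrpl36, 10 rose and 4 fell, with a median of 0.072. Of 20 tested genes from Mrpl37 upward, 5 rose and 6 fell, with a median of 0.0044. The difference between these lists was not tested.

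The level of the members varied more than their response. Per kilobase of exon in untreated WT, the scaled counts of tested members spanned 21.0-fold, from 3.95 ± 0.263 (SD, n = 3) at Mrpl17 and 5.32 ± 0.264 at Mrpl33 to 70.8 ± 4.62 at Mrpl41, 72.6 ± 4.52 at Mrpl18 and 83.0 ± 4.15 at Mrpl42. Mrpl18 and Mrpl41 did not differ beyond their spread, and all 3 of the highest fell in KO. They were ranked by the WT level that the fold change divides by. By the mean level over the 4 groups the highest member was Mrpl54, which rose, and of the 10 highest 5 were lower, 3 higher and 2 not called. Mrpl17, the lowest, was called in neither treatment (log2 0.076 and 0.12). Across the 48 tested members the log2 level per kilobase, taken as the mean over the 4 groups, and the log2 fold change had a Pearson's r of -0.363 and a Spearman's rho of -0.303, and for exon length r was 0.256, beside -0.0993 over 11231 protein-coding genes. The points share libraries, and the level and the fold change rest on the same counts, so these are descriptions.

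Mrpl53, the remaining member, could not be tested. Its counts were 0, 1 and 0 in untreated KO and 0, 0 and 1 in WT, and 0, 0 and 0 in KO and 0, 1 and 0 in WT after CMC. Exons of other genes, Gm42688 on the same strand and Ccdc142os on the other, cover 88.0% of its exon bases. No source used here says how reads on shared exons were counted, so these counts do not show that the gene is silent. In all, 21 members share some exon bases with another gene and 28 share none. Processed pseudogenes named after Mrpl23 and Mrpl48 held 25 and 135 counts over the 12 libraries, so the values of both members are uncertain to that extent.

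After CMC the KO libraries showed much the same pattern. The counts were again 15 higher, 10 lower and 23 not called, beside 54.1% of 12214 genes called, 27.3% higher and 26.8% lower. By at least 1.5-fold 5 rose and 5 fell, 20.8% of the tested members beside 34.1% of all genes. Without WT replicate 3 these were 6 and 7, with 52.3% of all genes called at any fold and the share at 1.5-fold not computed. The groups did not overlap for 30 members, 19 with KO above and 11 below, beside 58.9% of all genes, 29.4% above and 29.4% below, and the median was 0.025 beside -0.0076. With no TMM factor the median of all genes was 0.071 and the members' calls were 20 higher and 8 lower. In that fit 71.4% of the members' calls and 57.6% of the calls over all genes were higher, beside 60% and 50.4% with the factor. In both treatments 19 members were called in the same direction, 12 higher and 7 lower, beside 45.1% of the 11935 genes tested in both. There were 6 members called only in untreated libraries, 6 only after CMC, 17 in neither and 0 in opposite directions. Among the 11935 genes these numbers were 1538, 1092, 3903 and 17. Untreated and CMC libraries carry the same names within each genotype, and no source used here says whether they share RNA, so one comparison is no independent support for the other.

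**Figure D4:**
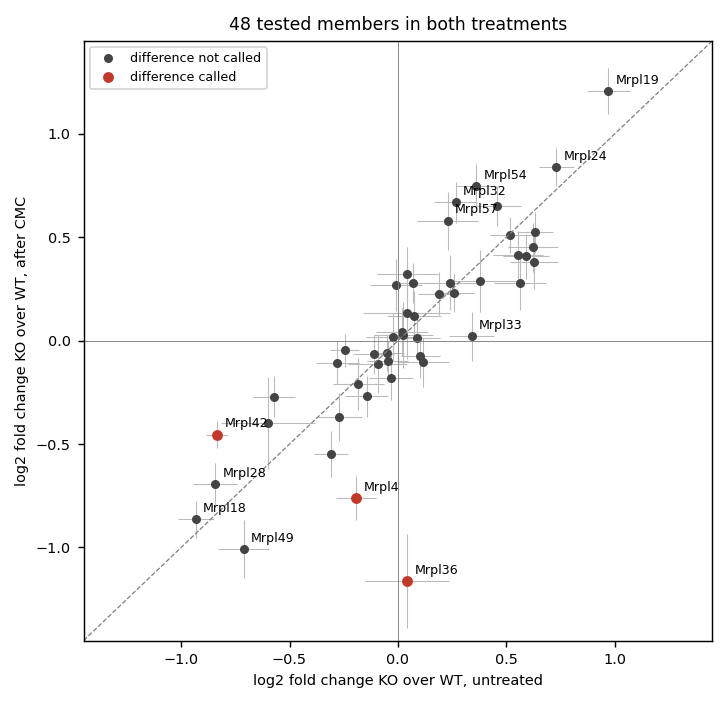
Log2 fold change KO over WT of the 48 tested members in untreated libraries (x axis) and after CMC (y axis), with standard errors; the dashed line marks equal change. Red points, Mrpl4, Mrpl36 and Mrpl42, passed the test of the difference at an adjusted p of 0.05, and no member called in both treatments lies in an opposite quadrant. Of all 11935 genes tested in both, 17 were called in opposite directions.

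The KO effect differed between CMC and untreated libraries for 3 of the 48 members, tested as a contrast over all 12 libraries, beside 1.49% of 12802 genes. The difference was above 0 for 1 and below 0 for 2 of them, beside 1.11% and 0.383% of all genes. Mrpl36 encodes a small zinc-binding protein of the large subunit. It stood at 12.4, 12.5 and 14.9 scaled counts in untreated KO and at 12.1, 13.4 and 13.1 in WT, which overlapped. After CMC it stood at 9.83, 7.35 and 6.10 in KO and at 16.9, 22.0 and 13.7 in WT, with all KO libraries lower (log2 -1.16, SE 0.23, edgeR adjusted p = 6.47e-05). The difference of the effects was -1.197 (SE 0.29, edgeR adjusted p = 0.0164). The gene had 17 to 69 counts a library. The call was lost in 5 of the 12 fits that left out 1 library, with edgeR adjusted p of 0.0508 to 0.130 there.

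Mrpl4, whose bacterial counterpart lines the exit tunnel, stood at 55.6, 51.8 and 54.3 scaled counts in untreated KO and at 54.8, 65.8 and 64.6 in WT, with overlap. After CMC it stood at 45.0, 38.9 and 46.6 in KO and at 84.3, 75.8 and 61.1 in WT, without overlap (log2 -0.76, SE 0.11, edgeR adjusted p = 5.82e-07). The difference was -0.56 (SE 0.15, edgeR adjusted p = 0.0348), and it was lost in 8 of the 12 fits without 1 library, with edgeR adjusted p of 0.0528 to 0.159. In both genes the WT libraries after CMC spread widely.

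Mrpl42 (chromosome 10, 95480805 to 95501940, minus strand), the member with the highest level, fell less after CMC. It stood at 173, 171 and 170 scaled counts in untreated KO and at 298, 295 and 323 in WT (log2 -0.83, SE 0.05, edgeR adjusted p = 1.43e-40). After CMC it stood at 228, 224 and 226 in KO and at 298, 289 and 343 in WT (log2 -0.45, SE 0.07, edgeR adjusted p = 1.13e-06). The WT levels were close in both treatments and every KO library after CMC lay above every untreated one. The treatments were scaled separately, and their levels were not tested against each other. The difference of the KO effects was 0.39 (SE 0.08, edgeR adjusted p = 0.00422), and it was called in all 12 fits without 1 library.

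**Figure D5:**
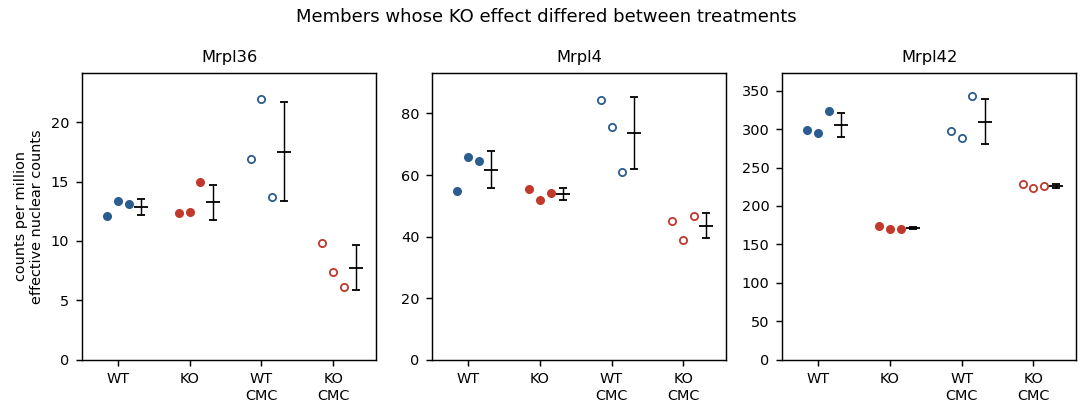
Scaled counts (y axis from 0) of Mrpl36, Mrpl4 and Mrpl42 in the 12 libraries; filled points are untreated and open points CMC libraries, WT blue and KO red, and black marks give the mean with its SD (n = 3). KO lies apart from WT after CMC in all 3 panels, and in untreated libraries only in that of Mrpl42.

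In sum of counts the 49 genes took 0.2485% ± 0.000306 (SD, n = 3) of nuclear counts in untreated KO and 0.2326% ± 0.000971 in WT. After CMC they took 0.2511% ± 0.00308 and 0.2363% ± 0.00350. The ratio KO to WT was 1.069 and 1.062. Per 1000000 effective nuclear counts the sums were 2385 ± 9.45 in KO and 2424 ± 18.2 in WT untreated, and 2443 ± 52.1 and 2429 ± 30.4 after CMC, ratios of 0.9838 and 1.006. The direction of the sum in untreated libraries thus turned with the scaling, while no called member turned its direction under the scalings tried.

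The partners of the Mrpl proteins were read from the same fits, in which 29.2% of all genes were higher and 28.7% lower in untreated libraries, and 27.3% and 26.8% after CMC. Of the 3 large-subunit proteins with other symbols, Mrps18a (log2 0.81, edgeR adjusted p = 2.41e-12) and Mrps30 (0.64, edgeR adjusted p = 1.86e-07) rose and Gadd45gip1 (-0.076) was not called in untreated libraries. Of 30 genes for small-subunit proteins 9 rose, 6 fell and 15 were not called, with a median of 0.0030. That list held the widest range, with Mrps18b at 43.4 ± 2.26 scaled counts in KO and 14.0 ± 1.18 in WT (log2 1.63, SE 0.14, edgeR adjusted p = 2.40e-24), Mrps6 at 0.93 and Mrps35 at -0.85. After CMC Mrps18b and Mrps35 were called again, while Mrps6 was not (0.17, edgeR adjusted p = 0.569). Of 21 genes for assembly factors and enzymes acting on 16S ribosomal RNA, the targeted Ptcd1 among them, 5 rose and 4 fell. Ndufab1, the acyl carrier protein that also sits in a late assembly complex of the large subunit, fell (-0.61, edgeR adjusted p = 1.94e-11), as did Mrm2, a 16S methyltransferase (-0.96, edgeR adjusted p = 0.0183). Mrm2 had only 8, 9 and 6 counts in untreated KO and 15, 15 and 11 in WT. It was not called after CMC (edgeR adjusted p = 0.0516), where its groups overlapped. After CMC 1 of these 21 rose and 7 fell. Of 11 genes listed for mitochondrial translation 7 fell and none rose in untreated libraries, 63.6% lower beside 28.7% of all genes. Their median was -0.24. The list holds Oxa1l, a membrane insertase and not a translation factor, which was among the falls (-0.22, edgeR adjusted p = 0.0165). Tufm, the elongation factor that brings transfer RNA to the ribosome, fell most (-0.73, edgeR adjusted p = 4.96e-19), followed by the initiation factor Mtif2 (-0.55, edgeR adjusted p = 3.54e-08) and the release factor Mtrf1l (-0.51, edgeR adjusted p = 0.0314). After CMC 3 of the 11 fell and 1 rose, 27.3% lower beside 26.8% of all genes. Oxa1l was again among the falls (-0.42, edgeR adjusted p = 0.000223).

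In the authors' deposited table of KO against WT, 48 members had an adjusted p, with 11 higher and 6 lower. All 17 were also called here by edgeR, and 8 were called here only. The share of all genes called in the authors' table was not computed. DESeq2 run here on the untreated libraries called 11 members higher and 6 lower, beside 32.4% of all genes it tested. The largest distance between a log2 fold change of the authors' deposited table and the one given here was 0.0189.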

How the data were processed

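The submitters' processing notes name the mm10 genome, featureCounts 1.5.1, HISAT2 2.0.5, DESeq2 1.16.1 and SAMtools 1.5. No source used here gives their settings or says whether reads were counted by strand. The authors deposited raw counts per gene, in separate tables for untreated and CMC libraries, and a table with a log2 fold change, its standard error, p-value and adjusted p-value per gene. Their per-base mitochondrial files and gene ontology files were not used here.

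Versioned gene IDs were matched to symbols for 51596 of 51911 features, 315 had none, and the 36 mitochondrial features were kept out of the scaling. Low genes were removed with filterByExpr. TMM factors came from nuclear genes, and tests used edgeR 4.0.16 (glmQLFit and glmQLFTest, limma 3.58.1, R 4.3.3, version 1.17.8 of data.table), with Benjamini-Hochberg adjustment over all genes, called at 0.05. A second rule asked for at least 1.5-fold. KO was compared with WT in 6 libraries per treatment, and the difference of the effects was a contrast over 12, so 3 comparisons were made. An SE is the size of the log2 fold change divided by the square root of the F statistic. Depth was 2683284 to 3187748 nuclear counts per library, and members other than Mrpl53 had 17 to 999 counts in a library, which limits precision; intervals from counts cover counting error only.

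The members and lists (places in the subunit, partner genes, cell type markers) were chosen with earlier results of these data known. Named genes were Ptcd1, the 7 largest called rises and falls without overlap in untreated libraries, members not tested or called in the difference, the 3 highest and 3 lowest per kilobase, the smallest adjusted p per place, and up to 3 per partner list by size of change. Other members are named by counts, and the exon overlap, the neighbours within 1000 bases, the motifs, the windows shown and the relation to level and length were chosen after values were seen. Exons came from GENCODE M21 and windows from RefSeq (GRCm38.p6). The code of the tests was checked on simulated counts with known changes in few genes. In these libraries most genes tested were called, so that check does not bear on the scaling or the number of calls. Other settings tried were DESeq2 1.42.0, other scalings, no filter, a test against 1.2-fold with glmTreat, 1 fit of all libraries, the replicate number as a block and leaving out each library.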

Additional observations from a re-analysis of the deposited data

Results flagged for a closer look

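The KO effect differed between CMC and untreated libraries for 3 members, by a contrast over all 12 libraries with edgeR. The effect after CMC minus the effect in untreated libraries was -0.56 on the log2 scale for Mrpl4 (edgeR adjusted p = 0.0348), -1.197 for Mrpl36 (edgeR adjusted p = 0.0164) and 0.39 for Mrpl42 (edgeR adjusted p = 0.00422). Mrpl36 and Mrpl4 were lower in KO after CMC and not called in untreated libraries, whereas Mrpl42 was lower in KO in both. WT replicate 3 after CMC stands apart from its group, and all 3 differences were called without it. In this library Mrpl4 (61.1 scaled counts beside 84.3 and 75.8) and Mrpl36 (13.7 beside 16.9 and 22.0) were nearer to KO. Mrpl42 (343 beside 298 and 289) was further from KO. Each of these values makes the difference smaller, so this fit could hardly remove a call. Mrpl4 and Mrpl36 each lost the call in several fits without another library, and Mrpl42 in none.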

How the results depend on the processing

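Every member called in untreated or CMC libraries kept its direction under each alternative run. In untreated libraries the number called lower was 6 with DESeq2 and 6 against a minimum of 1.2-fold, beside 10. The share of all genes called was 32.4% and 41.5% in these runs, beside 57.9%. After CMC the number called higher was 9 against 1.2-fold, beside 15. There the share of all genes called was 39.5%, beside 54.1%. Leaving out 1 library gave 13 to 15 higher and 8 to 11 lower in untreated libraries, and 12 to 15 higher and 7 to 10 lower after CMC. In these fits 53.1% to 53.7% of all genes were called in untreated libraries and 48.5% to 52.3% after CMC. The difference of the effects had 1 to 3 members called higher and 0 to 2 called lower when 1 library was left out, and 0 called lower with DESeq2, which gave an adjusted p for only 2 members. Without WT replicate 3 after CMC, Mrpl32 and Mrpl54 were called too, and 633 of all genes in place of 191; leaving out other libraries gave 90 to 209. The cause was not tested.

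Some values that were not called changed sign. With no TMM factor 7 members did so in untreated libraries (Mrpl3, Mrpl9, Mrpl16, Mrpl39, Mrpl46, Mrpl48 and Mrpl58) and 4 after CMC (Mrpl3, Mrpl9, Mrpl45 and Mrpl51). Mrpl46 in untreated libraries also did so with DESeq2 and with no filter. In the difference, Mrpl3 did so with TMM over all genes and with the replicate block, and Mrpl38 with TMM over all genes. Fits without 1 library turned 1 to 8 members each. The cause was not tested. Over these fits the named genes that turned had log2 values at Mrpl36 (-0.048 to 0.095), Mrpl1 (-0.013 to 0.11) in untreated libraries, Mrpl33 (-0.11 to 0.10) after CMC, and Ptcd1 (-0.14 to 0.21), Mrpl17 (-0.0033 to 0.092), Mrpl15 (-0.18 to 0.0049), Mrpl14 (-0.018 to 0.37) in the difference. The ratio of summed counts KO to WT, 1.069 untreated and 1.062 after CMC over nuclear counts, was 1.047 and 0.9178 over all counts. Over effective nuclear counts, an alternative chosen after seeing the data, it was 0.9838 and 1.006, since the TMM factors differ between genotypes.

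Correlations of deviations between same-numbered KO and WT libraries were -0.11 to -0.0139. Between same-numbered untreated and CMC libraries they were 0.0225 to 0.0701 in KO and -0.0204 to -0.00227 in WT. Libraries of unlike number gave -0.0514 to 0.0207 in KO and -0.00258 to 0.0192 in WT. Since replicates differed little more than counting error, small correlations cannot show whether same-numbered libraries share RNA. With the replicate block 15 members were higher and 10 lower in untreated libraries, 13 and 10 after CMC, where Mrpl13 and Mrpl43 lost their calls, and 1 and 2 in the difference. All genes called numbered 7032 in untreated libraries with the block and 7070 without. DESeq2 called 4975. Depth limits the low members, such as Mrpl36 and Mrpl14, more than the others.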
